A study of Arabidopsis thaliana with 48 samples.

Results

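The RNA-directed DNA methylation (RdDM) machinery of Arabidopsis thaliana was followed here through 10 genes, picked by their locus identifiers out of 33977 gene rows in each of a leaf table and a root table. All 10 were present in both tables: NRPD1 (AT1G63020), CLSY1 (AT3G42670), CLSY3 (AT1G05490), SHH1 (AT1G15215), RDR2 (AT4G11130), DCL3 (AT3G43920), NRPE1 (AT2G40030), DRD1 (AT2G16390), AGO4 (AT2G27040) and AGO6 (AT2G32940). RdDM is the plant pathway that places new cytosine methylation on transposons and repeats under the guidance of small RNAs. RNA polymerase IV makes a transcript that is copied into double-stranded RNA and diced, and the resulting small RNAs, held by an Argonaute protein, pair with a scaffold transcript of RNA polymerase V and bring in a DNA methyltransferase. The pathway is best known for keeping transposons silent and for re-establishing methylation that other enzymes have lost.

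The plants were seedlings of 3 genotypes in the Col-0 background, all 11 days old and grown on plates under constant light, from which leaves and roots were taken separately. The mutant elp2-5 carries a lesion in ELP2, a subunit of the Elongator complex, and met1-7 carries one in MET1, the enzyme that maintains CG methylation after replication; Col-0 was the wild type. Each genotype grew in the Veggie unit on the International Space Station (FT, flight) or in a matching unit in a ground chamber that copied the station's temperature, CO2 and light (GC, ground control), with 4 libraries per genotype, organ and environment and 48 in all. A library held pooled plants and not a single one, 1 met1-7 FT replicate came from fewer plates than the rest, each mutant was 1 allele, and every plant had been preserved in RNAlater before dissection. Values are FPKM, a fragment count scaled by transcript length and by library size, so that genes of a library can be set side by side. Differences between libraries still depend on the scaling. In leaves the median log2 difference of all genes between elp2-5 and Col-0 was 0.12 in FT and 0.14 in GC. Values after a further scaling are therefore given too. "Changed" means an adjusted p under 0.05 by limma on log2(FPKM + 0.5), fitted over all genes with at least 1 FPKM in 4 libraries of the organ, and a DEG is a changed gene that also differed at least 2-fold on that scale.

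ELP2 transcript was measured first as a check of the labels. It averaged 3.75 ± 0.272 FPKM in elp2-5 FT leaves and 8.34 ± 0.556 FPKM in Col-0 FT leaves (SD, n = 4 each), and its log2 difference between elp2-5 and Col-0 lay between -1.05 and -1.24 in the 4 comparisons. MET1 transcript was present in every met1-7 library, from 10.8 to 20.4 FPKM, so its level does not check that label. The 8 photosynthesis genes used as a leaf check summed to 335 to 841 FPKM in root libraries and 34216 to 54074 FPKM in leaf libraries, and the 8 root genes summed to 400.2 to 719 FPKM in roots and 12.9 to 20.6 FPKM in leaves, where EXPA7, CASP2 and RHD6 fell to 0 in some library. One root library stood apart in its total: elp2-5 GC replicate 2 summed to 938877 FPKM, against 834583 to 878110 FPKM in the other root libraries.

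The upstream bases of CLSY3 and NRPD1 are shown because these members changed in all 4 comparisons of elp2-5 with Col-0 described here. Each is the 250 bases before the annotated gene start, 5′ to 3′ on the strand of the gene, read from the TAIR10.1 reference genome. Both strands were searched for the telo-box AAACCCT, the site II element TGGGCC, the E2F site TTCCCGC and the G-box CACGTG, and a match would stand in capitals.
CLSY3, chr1:1623490-1623739, minus strand: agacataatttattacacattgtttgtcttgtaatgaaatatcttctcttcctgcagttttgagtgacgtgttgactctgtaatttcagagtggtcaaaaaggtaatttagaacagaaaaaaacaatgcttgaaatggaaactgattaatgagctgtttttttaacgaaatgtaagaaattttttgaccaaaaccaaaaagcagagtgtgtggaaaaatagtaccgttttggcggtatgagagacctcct
NRPD1, chr1:23362590-23362839, minus strand: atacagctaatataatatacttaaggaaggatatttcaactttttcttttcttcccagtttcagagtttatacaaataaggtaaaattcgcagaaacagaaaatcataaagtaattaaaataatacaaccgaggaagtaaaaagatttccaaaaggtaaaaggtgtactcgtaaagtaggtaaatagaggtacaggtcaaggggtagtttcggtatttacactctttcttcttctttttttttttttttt

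None of these 4 short motifs occurred upstream of CLSY3 or NRPD1 in the exact letters given. Variants of the motifs were not searched. Among the 27443 protein-coding genes searched the same way, 7.33% held a telo-box, 13.7% a site II element, 1.21% an E2F site and 6.49% a G-box. The members are scattered over the genome: NRPD1 (chr1:23354685-23362589), CLSY3 (chr1:1618504-1623489) and SHH1 (chr1:5238044-5240051) lie on chromosome 1, AGO4 (chr2:11536502-11542391), AGO6 (chr2:13971916-13977521), NRPE1 (chr2:16714460-16723718) and DRD1 (chr2:7097280-7101351) on chromosome 2, CLSY1 (chr3:14755798-14760629) and DCL3 (chr3:15753387-15760859) on chromosome 3, and RDR2 (chr4:6780449-6784632) on chromosome 4. The gene ends of SHH1, DCL3 and DRD1 overlap an opposite-strand gene (CCMH, AT3G43930 and BLH7) by 23, 43 and 83 bases, and whether the counting used strand was not given in the sources used here. No member had a second copy of at least 95% identity over 100 bases elsewhere in the nuclear genome; the closest relative found was CLSY2 (also named CHR42), 82.4% identical to CLSY1 over 1928 aligned bases.

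AGO4, the Argonaute that loads the small RNAs, was by far the most abundant member. It had the highest mean level in all 12 groups, from 23.0 FPKM in Col-0 FT leaves to 33.3 FPKM in elp2-5 FT leaves, and SHH1, the homeodomain protein that reads histone marks and guides polymerase IV, was second in every group with 7.24 to 13.2 FPKM. The other members averaged under 9 FPKM. AGO6, a second Argonaute, and CLSY3, a chromatin remodeler that guides polymerase IV to a subset of sites, were the lowest. In Col-0 and met1-7 CLSY3 was the last or the second last of the 10, at 0.513 to 1.24 FPKM, and in elp2-5 roots and leaves it was above AGO6.

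**Figure D1:**
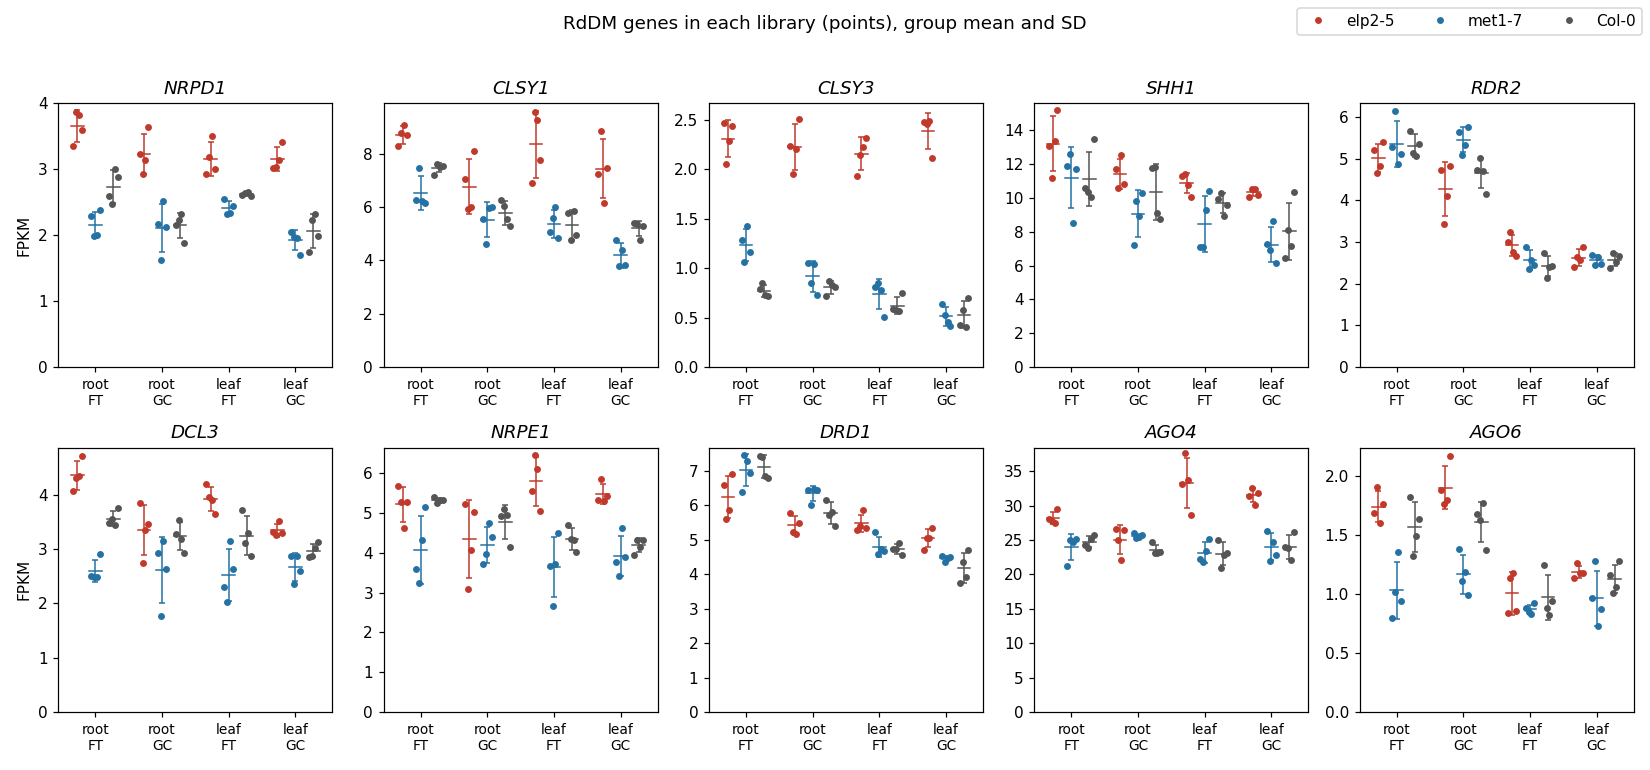
FPKM of the 10 RdDM genes in the 48 libraries. Each point is 1 library, the horizontal line is the mean of the 4 libraries and the bar is 1 SD; within each organ and environment the order is elp2-5, met1-7, Col-0. The elp2-5 points of CLSY3 lie between 1.93 and 2.51 FPKM, above every met1-7 and Col-0 point, which end at 1.43 FPKM, in both organs and both environments.

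Set side by side without a test, since the organs were quantified in separate tables, RDR2 was the member with the clearest organ difference. RDR2, the RNA-dependent RNA polymerase that makes polymerase IV transcripts double-stranded, averaged 5.30 FPKM in Col-0 FT roots and 2.43 FPKM in Col-0 FT leaves, and in all 6 genotype and environment pairs its root libraries lay above its leaf libraries, by 1.63 to 2.18 times. The median ratio of root to leaf over the 18666 genes tested in both organs was 1.27 to 1.43 in the same pairs. AGO6 root libraries lay above the leaf libraries in 4 of 6 pairs, all of them elp2-5 or Col-0, with ratios of 1.43 to 1.73, and in met1-7 the root and leaf ranges of AGO6 overlapped with ratios of 1.18 and 1.21. DRD1, the remodeler that helps polymerase V onto chromatin, had root libraries above leaf libraries in 4 of 6 pairs, those of met1-7 and Col-0. Its ratios there were 1.38 to 1.51, near the median of all genes in those pairs, 1.37 to 1.43. The AGO6 ratio in Col-0 GC, 1.43, was also near the median of its pair, 1.42. The share of all genes with root libraries above leaf libraries was not taken. The ratio for AGO4 was 0.795 to 1.08 and that for DCL3, which dices the double-stranded RNA, was 0.978 to 1.11, both below the median of all genes in every pair.

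The comparison of elp2-5 with Col-0 asked how loss of Elongator function changed expression in each environment. In leaves 8 of the 10 members rose in FT and 7 rose in GC, and none fell. Those calls must be read against a wide background: 50.4% of all 19877 genes tested changed in FT leaves and 51.6% in GC leaves, with 35.5% and 37.6% of all genes called higher. The median log2 difference of the 10 members was 0.23 in FT and 0.36 in GC, and that of all genes was 0.12 and 0.14. CLSY3 was the only member that was a DEG, which is a description for the reason given below. That class held 5.94% of all genes in FT leaves and 5.51% in GC leaves. When each library was scaled by the median ratio of its values to the mean library, which brought the median of all genes to 0.0012 and 0.0070, 4 members remained called in FT (CLSY3, CLSY1, AGO4 and NRPE1) and 4 in GC (CLSY3, CLSY1, AGO4 and NRPD1). With that scaling 46.7% of all genes were called in FT and 45.7% in GC, and 22.6% and 22.4% of all genes were called higher. Over all genes that scaling moved the share of calls that were higher to 48.4% in FT and 49.1% in GC, against 70.4% and 72.7% with the values as deposited.

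CLSY3 had 1.93, 2.15, 2.23 and 2.32 FPKM in elp2-5 FT leaves, against 0.59, 0.58, 0.57 and 0.75 FPKM in Col-0 FT leaves. In GC leaves it had 2.48, 2.46, 2.49 and 2.12 FPKM in elp2-5, against 0.43, 0.58, 0.41 and 0.70 FPKM in Col-0. Every elp2-5 library lay above every Col-0 library in either environment. On the log2 scale the differences were 1.24 ± 0.12 in FT and 1.49 ± 0.12 in GC (SE of the limma fit). The pseudocount of 0.5 understates a gene this low: the plain ratios of the mean FPKM were 3.47 and 4.5. CLSY3 entered the leaf test only because its 8 elp2-5 libraries reached 1 FPKM, while no met1-7 or Col-0 leaf library did. No p is therefore given for it in leaves, and its leaf calls and its place as a DEG there are a description. Without that filter the log2 differences were the same.

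In roots the same gene had 2.47, 2.05, 2.29 and 2.44 FPKM in elp2-5 FT, against 0.79, 0.85, 0.73 and 0.72 FPKM in Col-0 FT. In GC roots it had 2.24, 1.95, 2.21 and 2.51 FPKM in elp2-5, against 0.72, 0.87, 0.83 and 0.81 FPKM in Col-0. Again no libraries of the 2 genotypes overlapped. The log2 differences were 1.14 ± 0.11 in FT (limma adjusted p = 1.2e-07) and 1.06 ± 0.11 in GC (adjusted p = 3.0e-07), so that CLSY3 was a DEG in roots too, where DEGs made up 3.98% of genes in FT and 3.73% in GC. It was changed in all 4 comparisons under all 8 other settings tried and when any single library of the 2 genotypes was left out. The limit given above for leaves holds for these leaf calls too.

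NRPD1, the largest subunit of polymerase IV, was the only other member changed in all 4 comparisons. It had 2.92, 3.18, 3.5 and 3.00 FPKM in elp2-5 FT leaves, against 2.60, 2.63, 2.65 and 2.59 FPKM in Col-0 FT leaves. In GC leaves it had 3.01, 3.03, 3.14 and 3.40 FPKM in elp2-5, against 1.74, 2.22, 2.31 and 1.98 FPKM in Col-0. The 2 genotypes did not overlap in either environment, but the FT difference was the smaller one. It was 0.22 ± 0.08 in FT (limma adjusted p = 0.022) and 0.51 ± 0.08 in GC (adjusted p = 2.0e-05), and after median-ratio scaling the FT value was 0.11 with an adjusted p of 0.22 while the GC value was 0.39 and remained called. Without elp2-5 FT replicate 3 the FT leaf value was 0.18, with an adjusted p of 0.085.

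The NRPD1 difference was similar in roots. It had 3.34, 3.86, 3.81 and 3.59 FPKM in elp2-5 FT roots, against 2.59, 2.47, 2.99 and 2.88 FPKM in Col-0 FT roots. GC roots gave 3.22, 2.92, 3.14 and 3.64 FPKM in elp2-5, against 2.15, 2.23, 2.32 and 1.88 FPKM in Col-0. All elp2-5 root libraries lay above all Col-0 root libraries of the same environment. The log2 differences were 0.36 ± 0.10 in FT (limma adjusted p = 0.0079) and 0.50 ± 0.10 in GC (adjusted p = 0.00064), both called under all 8 other settings and without any single library of the 2 genotypes.

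CLSY1, which brings polymerase IV to the sites where it makes most of its RNA in leaves, rose in elp2-5 leaves. It had 6.89, 9.55, 9.25 and 7.76 FPKM in elp2-5 FT leaves, against 5.78, 4.76, 5.85 and 4.96 FPKM in Col-0 FT leaves. For GC leaves the values were 7.25, 8.86, 6.17 and 7.48 FPKM in elp2-5, against 5.40, 5.35, 4.77 and 5.29 FPKM in Col-0. The genotypes were separate in both environments although the elp2-5 libraries varied more. Its log2 differences were 0.60 ± 0.11 in FT (limma adjusted p = 0.00012) and 0.47 ± 0.11 in GC (adjusted p = 0.0012). In roots the CLSY1 differences were 0.21 ± 0.09 in FT and 0.20 ± 0.09 in GC. With quantile normalization both were 0.25 and called (limma adjusted p = 0.044 and 0.046), but on the values as deposited they missed the threshold (adjusted p = 0.083 and 0.090). Without elp2-5 GC root replicate 2, the library with the high FPKM total, the GC root value was 0.26 and passed it (adjusted p = 0.037); that library had the lowest value of its group in 8 of the 10 members, all but AGO4 and DRD1.

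AGO4 rose in elp2-5 leaves to 33.08, 37.61, 33.68 and 28.66 FPKM in FT, against 25.00, 20.99, 22.84 and 23.18 FPKM in Col-0 FT leaves. In GC leaves it had 31.37, 32.61, 30.14 and 31.88 FPKM in elp2-5, against 23.97, 23.80, 22.03 and 26.19 FPKM in Col-0. No library of one genotype reached the range of the other. The log2 differences were 0.52 ± 0.07 in FT (limma adjusted p = 1.0e-05) and 0.39 ± 0.07 in GC (adjusted p = 0.00022). AGO4 also rose in elp2-5 FT roots, where it had 27.52 to 29.49 FPKM in elp2-5 and 23.90 to 25.74 FPKM in Col-0, a log2 difference of 0.18 ± 0.06 (adjusted p = 0.016) that was lost without Col-0 FT replicate 2 or elp2-5 FT replicate 4 (adjusted p up to 0.054). In GC roots the AGO4 ranges overlapped, at 22.08 to 26.56 FPKM in elp2-5 and 23.04 to 24.73 FPKM in Col-0.

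NRPE1, the largest subunit of polymerase V, had 5.05 to 6.45 FPKM in elp2-5 FT leaves and 4.02 to 4.70 FPKM in Col-0 FT leaves, and 5.29 to 5.84 FPKM in elp2-5 GC leaves and 3.95 to 4.32 FPKM in Col-0 GC leaves. These were log2 differences of 0.37 ± 0.11 and 0.35 ± 0.11 (limma adjusted p = 0.0063 and 0.0093), and with median-ratio scaling the GC value was 0.22 with an adjusted p of 0.076. In roots NRPE1 differed by -0.03 in FT and -0.14 in GC, neither called. DRD1 rose in elp2-5 leaves by 0.19 in FT and 0.25 in GC (adjusted p = 0.016 and 0.0027), differences that were 0.07 and 0.12 and not called with median-ratio scaling, and the FT call was lost without elp2-5 FT replicate 3 (adjusted p = 0.059). In FT roots DRD1 fell by 0.18 on the log2 scale (adjusted p = 0.045), with 5.61 to 6.90 FPKM in elp2-5 and 6.80 to 7.43 FPKM in Col-0; this call was lost without Col-0 FT replicate 1, 2 or 3 or elp2-5 FT replicate 2 or 3 (adjusted p up to 0.16) and with median-ratio scaling (adjusted p = 0.077).

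The remaining calls in elp2-5 leaves were those of RDR2, DCL3 and SHH1, each in 1 environment. RDR2 rose by 0.22 in FT (limma adjusted p = 0.026), with 2.67 to 3.24 FPKM in elp2-5 and 2.14 to 2.73 FPKM in Col-0, and this was lost without Col-0 FT replicate 2 or elp2-5 FT replicate 1 or 2 (adjusted p up to 0.097). DCL3 rose by 0.24 in FT (adjusted p = 0.037), with 3.65 to 4.19 FPKM in elp2-5 and 2.87 to 3.71 FPKM in Col-0, and was lost without Col-0 FT replicate 2, 3 or 4 or elp2-5 FT replicate 1, 2 or 3 (adjusted p up to 0.12). SHH1 rose by 0.37 in GC (adjusted p = 0.016), with 10.07 to 10.54 FPKM in elp2-5 and 6.46 to 10.34 FPKM in Col-0, and was lost without Col-0 GC replicate 1 or 3 (adjusted p up to 0.073). None of these 3 calls held with median-ratio scaling. AGO6 was called in neither environment, at 0.03 in FT and 0.06 in GC, with 95% intervals from -0.23 to 0.29 and from -0.20 to 0.32; with median-ratio scaling these values were -0.055 and -0.043.

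Taking roots as a whole, 4 members changed between elp2-5 and Col-0 in FT, CLSY3, NRPD1 and AGO4 upward and DRD1 downward, where 36.7% of the 21000 genes tested changed. In GC roots 2 members changed, CLSY3 and NRPD1, against 38.7% of all genes. The median log2 difference of the 10 members was 0.20 in FT roots and 0.11 in GC roots, and that of all genes was -0.020 and -0.0042. Scaling by median ratios left the root values close to those deposited, and only the DRD1 call was lost. With quantile normalization 5 members were called in FT roots and 3 in GC roots, all upward, where 37.1% and 37.9% of all genes were called.

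**Figure D2:**
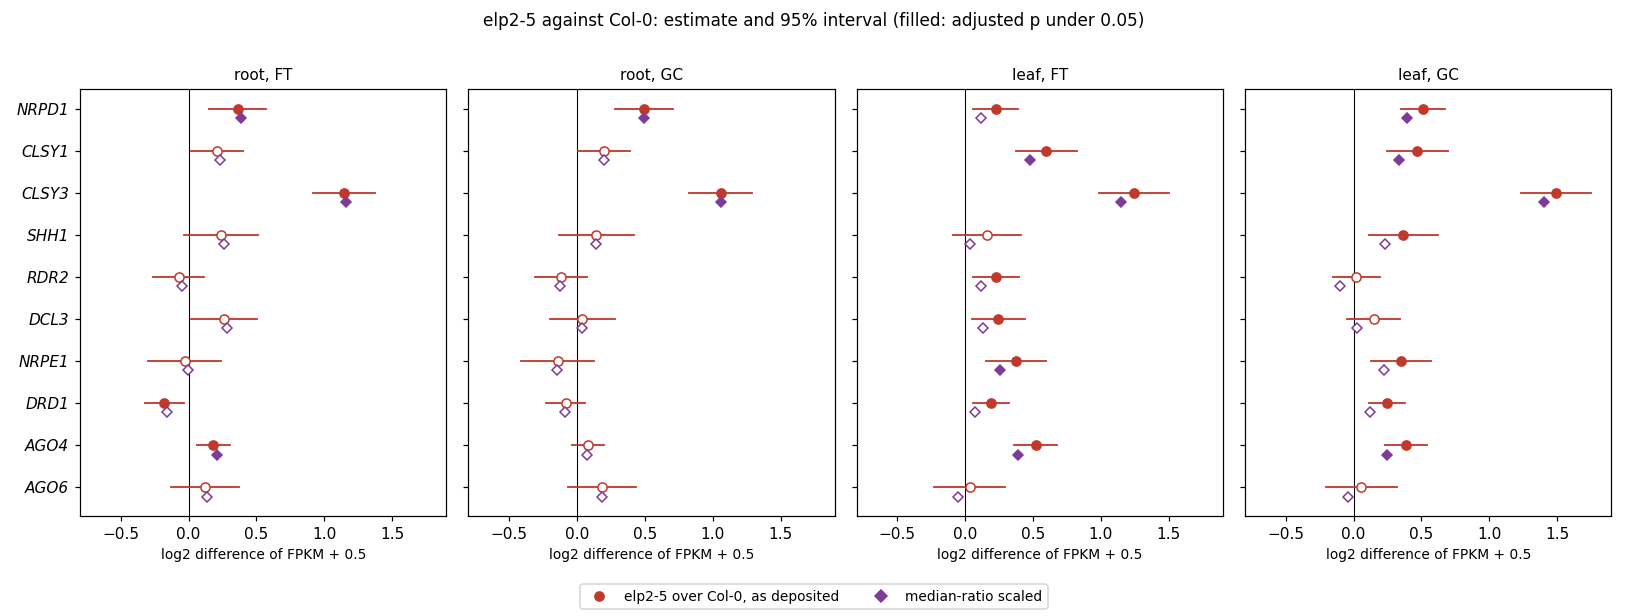
Log2 difference between elp2-5 and Col-0 of FPKM + 0.5 for each RdDM gene, in roots and leaves and in FT and GC. Circles and lines are the limma estimate and its 95% interval on the values as deposited, diamonds the estimate after median-ratio scaling, and filled symbols have an adjusted p under 0.05. CLSY3 stands to the right in all 4 panels, from 1.06 to 1.49, and in the leaf panels the diamonds lie to the left of the circles.

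Markers of dividing cells were read in the same comparisons of elp2-5 with Col-0. All 10 of 10 rose in elp2-5 FT leaves and 9 rose in GC leaves, none was at 0 in any library, and their summed level was 208 to 286 FPKM in elp2-5 FT leaves, against 164 to 186 FPKM in Col-0 FT leaves, and 243 to 264 FPKM in elp2-5 GC leaves, against 201 to 209 FPKM in Col-0 GC leaves. Over all genes 35.5% were called higher in FT leaves and 37.6% in GC leaves. With median-ratio scaling 7 and 5 of the 10 dividing-cell markers remained called, all upward, where 22.6% and 22.4% of all genes were called higher. Over the same comparisons the 8 photosynthesis genes summed to 34216 to 40226 FPKM in elp2-5 FT leaves, against 43590.5 to 50248 FPKM in Col-0 FT leaves, and to 36560.3 to 40720.0 FPKM in elp2-5 GC leaves, against 49061 to 54074 FPKM in Col-0 GC leaves. In roots 3 dividing-cell markers rose in FT and 8 in GC, while 4 of the 8 root markers fell in both environments, with sums of 400.2 to 507 FPKM in elp2-5 FT roots against 499.6 to 540.4 FPKM in Col-0 FT roots. Over all genes 36.7% changed in FT roots and 38.7% in GC roots, with 15.6% and 18.9% called higher. Whether these lists had a part in the members' differences was not tested, and in whole organs fewer cells of a type and less RNA per cell cannot be told apart.

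Other genes of the pathway were read from a list of 27, of which 24 were tested in leaves and 22 in roots. In elp2-5 leaves 14 rose and 1 fell in FT, and 13 rose and 1 fell in GC, with a median log2 difference of 0.25 and 0.24, where 50.4% and 51.6% of all genes changed and the median of all genes was 0.12 and 0.14. CLSY2, the closest relative of CLSY1, had 1.91, 2.11, 2.28 and 1.89 FPKM in elp2-5 FT leaves, against 0.69, 0.92, 0.86 and 0.64 FPKM in Col-0 FT leaves, with log2 differences of 1.00 ± 0.13 in FT and 1.13 ± 0.13 in GC. It passed the filter on low values only through its 8 elp2-5 leaf libraries, since no met1-7 or Col-0 leaf library reached 1 FPKM, so no p is given for it and its place among the genes that rose is a description. SUVR2, a SET-domain protein needed for silencing at many RdDM sites, rose by 0.72 in FT and 0.52 in GC (limma adjusted p = 3.2e-06 and 0.000105). MORC2, an ATPase of the MORC family, fell in both, with 0.75 to 1.12 FPKM in elp2-5 FT leaves against 1.81 to 2.42 FPKM in Col-0 FT leaves and log2 differences of -0.88 and -0.74 (adjusted p = 2.2e-05 and 0.00014). With median-ratio scaling 9 genes of the list rose and 1 fell in FT leaves, and 11 rose and 5 fell in GC leaves. The shares of all genes called with that scaling were 46.7% and 45.7%.

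In elp2-5 roots 4 of the 22 genes of that list rose and 3 fell in FT, where 36.7% of all genes changed, and 2 of 22 rose and none fell in GC, where 38.7% did, so neither count lay above its background. RDM1, a part of the complex that links polymerase V to the methyltransferase, was the one called in both, with 9.52 to 11.14 FPKM in elp2-5 FT roots against 7.97 to 8.68 FPKM in Col-0 FT roots (log2 difference 0.31, limma adjusted p = 0.0035) and 10.32 to 12.83 FPKM in elp2-5 GC roots against 6.66 to 8.19 FPKM in Col-0 GC roots (0.53, adjusted p = 2.6e-05). MORC2 and CLSY2 were under the filter in roots and not tested: MORC2 had 0.00 to 0.10 FPKM in elp2-5 and 0.21 to 0.58 FPKM in Col-0, and CLSY2 had 0.36 to 1.18 FPKM in elp2-5 and 0.38 to 0.88 FPKM in Col-0.

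The comparison of met1-7 with Col-0 asked the same of a plant that lacks full CG maintenance. DCL3 was the 1 member changed in FT leaves, where 7.44% of all genes changed, and none changed in GC leaves, where 15.6% of all genes did. In GC leaves limma gave an unadjusted p under 0.05 for 5940 of the 19877 genes tested and for 1 member, CLSY1. DCL3 had 2.30, 2.03, 3.14 and 2.64 FPKM in met1-7 FT leaves, against 3.71, 3.11, 3.29 and 2.87 FPKM in Col-0 FT leaves. The ranges overlapped, the log2 difference was -0.32 ± 0.09 (adjusted p = 0.045), and the call was lost without Col-0 FT replicate 1, 2 or 3 or met1-7 FT replicate 1 or 2 (adjusted p up to 0.18).

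In met1-7 FT roots AGO6 fell and CLSY3 rose, where 5.43% of all genes changed. AGO6 had 0.80, 1.02, 1.36 and 0.94 FPKM in met1-7 FT roots, against 1.82, 1.32, 1.49 and 1.64 FPKM in Col-0 FT roots, a log2 difference of -0.44 ± 0.12 (limma adjusted p = 0.032). CLSY3 had 1.29, 1.06, 1.43 and 1.16 FPKM in met1-7 FT roots, against 0.79, 0.85, 0.73 and 0.72 FPKM in Col-0 FT roots, with no overlap and a log2 difference of 0.44 ± 0.11 (adjusted p = 0.019). The AGO6 call was lost without Col-0 FT replicate 1, 3 or 4 or met1-7 FT replicate 1, 2 or 4 (adjusted p up to 0.12), and the CLSY3 call without Col-0 FT replicate 4 or met1-7 FT replicate 1 or 3 (adjusted p up to 0.055). The CLSY3 difference was 0.35 and not called with quantile normalization (adjusted p = 0.061), and with only the 8 compared libraries in the fit neither CLSY3 nor AGO6 was called (adjusted p = 0.097 and 0.14). No member changed in met1-7 GC roots, where 7.6% of all genes did. An unadjusted p under 0.05 in limma was reached by 4554 of the 21000 genes tested and by 3 members. AGO6 was one of these, with 0.99 to 1.38 FPKM in met1-7 GC roots and 1.37 to 1.77 FPKM in Col-0 GC roots (log2 difference -0.34, adjusted p = 0.087).

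**Figure D3:**
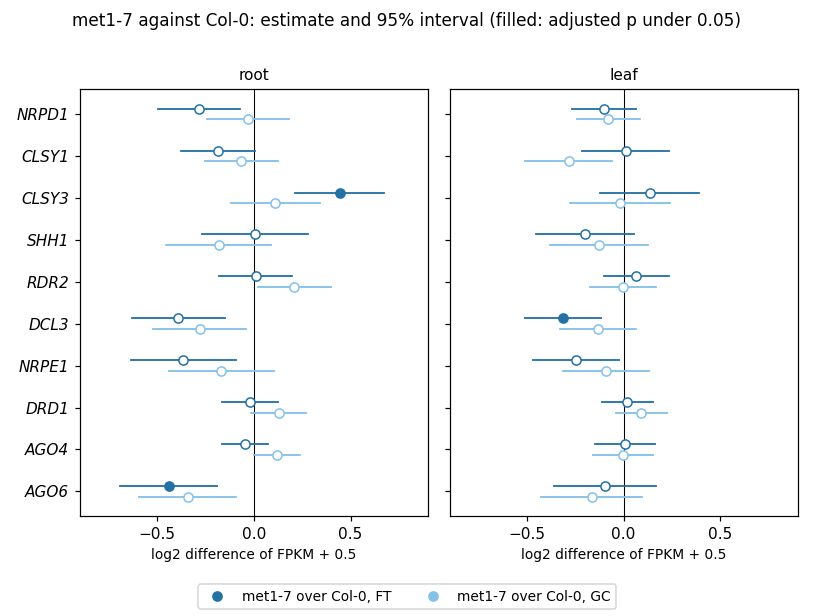
Log2 difference between met1-7 and Col-0 of FPKM + 0.5 for each RdDM gene in roots and leaves, in FT (dark) and GC (light). Points and lines are the limma estimate and its 95% interval, and filled points have an adjusted p under 0.05. The filled points are AGO6 at -0.44 and CLSY3 at 0.44 in FT roots and DCL3 at -0.32 in FT leaves.

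Of the 24 other pathway genes tested in leaves, 1 rose and 2 fell in met1-7 FT leaves, where 7.44% of all genes changed. In met1-7 GC leaves 2 rose and 1 fell, where 15.6% of all genes changed. In limma none of the 22 tested in roots changed in met1-7 FT or GC roots, where 5.43% and 7.6% of all genes did. SUVH9, which binds methylated DNA and helps recruit polymerase V, had 20.03 to 24.20 FPKM in met1-7 FT leaves against 15.65 to 20.60 FPKM in Col-0 FT leaves (log2 difference 0.29, adjusted p = 0.011) and 20.44 to 22.50 FPKM in met1-7 GC leaves against 13.09 to 14.83 FPKM in Col-0 GC leaves (0.63, adjusted p = 1.2e-06). MORC2 fell in met1-7 leaves as well, by 0.56 in FT and 0.41 in GC on the log2 scale (adjusted p = 0.014 and 0.043).

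Set directly against each other, in comparisons that share the elp2-5 libraries with those above, the mutants differed in 8 members in FT leaves and in 8 in GC leaves, all higher in elp2-5, against backgrounds of 47.8% and 52.3% of all genes. On the values as deposited the 8 were the same genes in both environments: CLSY3, CLSY1, NRPD1, SHH1, DCL3, NRPE1, DRD1 and AGO4. CLSY3 was again the only DEG, with log2 differences of 1.11 ± 0.12 in FT and 1.51 ± 0.12 in GC. DEGs made up 6.59% and 6.67% of genes in these comparisons. CLSY3 passed the filter on low values in leaves only through its elp2-5 libraries, so no p is given here and its place as a DEG is a description. Its met1-7 leaf libraries had 0.81, 0.85, 0.78 and 0.51 FPKM in FT and 0.64, 0.53, 0.46 and 0.42 FPKM in GC, all below the elp2-5 libraries given above. With median-ratio scaling 6 members remained called in each environment: SHH1 and DRD1 were lost in FT (adjusted p = 0.071 and 0.35), and DCL3 and DRD1 in GC (adjusted p = 0.18 and 0.76), so that the 2 sets then differed. With quantile normalization 5 remained in each. The shares of all genes called were 46.5% in FT and 47.6% in GC with median-ratio scaling. With quantile normalization they were 46.2% and 47.0%. The DRD1 calls were the least firm, at 0.17 and 0.16 (adjusted p = 0.029 and 0.042): the GC call was lost when any library but elp2-5 GC replicate 1 was left out, and the FT call without elp2-5 FT replicate 3 or met1-7 FT replicate 2, 3 or 4 (adjusted p up to 0.12 and 0.095). The SHH1 call in FT was lost without elp2-5 FT replicate 2 or met1-7 FT replicate 1 or 2 (adjusted p up to 0.079), and the DCL3 call in GC without met1-7 GC replicate 2 (adjusted p = 0.067).

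In FT roots 7 members were higher in elp2-5 than in met1-7, where 39.2% of all genes differed: CLSY3, NRPD1, CLSY1, DCL3, NRPE1, AGO4 and AGO6. In GC roots CLSY3, NRPD1, CLSY1, DCL3 and AGO6 were higher and DRD1 and RDR2 lower, where 37.9% of all genes differed. AGO6, which was not called between elp2-5 and Col-0, had 1.60 to 1.91 FPKM in elp2-5 FT roots against 0.80 to 1.36 FPKM in met1-7 FT roots, and 1.76 to 2.17 FPKM in elp2-5 GC roots against 0.99 to 1.38 FPKM in met1-7 GC roots. Its log2 differences were 0.56 ± 0.12 and 0.53 ± 0.12 (limma adjusted p = 0.00085 and 0.0015), with no overlap in either environment. DCL3 had 4.07 to 4.72 FPKM in elp2-5 FT roots against 2.48 to 2.91 FPKM in met1-7 FT roots (0.65, adjusted p = 0.00015). RDR2 had 3.42 to 4.83 FPKM in elp2-5 GC roots against 5.09 to 5.75 FPKM in met1-7 GC roots (-0.33, adjusted p = 0.0071), and without elp2-5 GC replicate 2 the difference was -0.24 (adjusted p = 0.031). The calls of NRPE1 in FT, and of CLSY1, DCL3 and DRD1 in GC, were lost without 1 or more single libraries: NRPE1 without elp2-5 FT replicate 1, 2 or 4 or met1-7 FT replicate 1 or 2, CLSY1 without elp2-5 GC replicate 1 or 4 or met1-7 GC replicate 2, DCL3 without elp2-5 GC replicate 1, 3 or 4 or met1-7 GC replicate 2 or 4, and DRD1 without elp2-5 GC replicate 3, with adjusted p up to 0.17, 0.12, 0.17 and 0.053.

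The comparison of FT with GC within a genotype asked what growth in space did. In leaves NRPD1 was the only member changed: it rose in Col-0, where 11.9% of all genes changed, and in met1-7, where 12.9% did. It had 2.60, 2.63, 2.65 and 2.59 FPKM in Col-0 FT leaves, against 1.74, 2.22, 2.31 and 1.98 FPKM in Col-0 GC leaves. In met1-7 it had 2.54, 2.31, 2.33 and 2.44 FPKM in FT leaves, against 2.05, 1.97, 1.96 and 1.70 FPKM in GC leaves. Neither pair overlapped, and the 4 Col-0 FT libraries lay within 0.06 FPKM of each other. The log2 differences were 0.29 ± 0.08 in Col-0 and 0.27 ± 0.08 in met1-7 (limma adjusted p = 0.022 and 0.031), and with median-ratio scaling they were 0.25 and 0.20 (adjusted p = 0.035 and 0.083). The Col-0 call was lost without FT replicate 2 or 3 or GC replicate 1 (adjusted p up to 0.090), and the met1-7 call without FT replicate 1, 3 or 4 or GC replicate 2 or 4 (adjusted p up to 0.10).

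In elp2-5 leaves no member changed between FT and GC, where 0.8% of all genes did. An unadjusted p under 0.05 in limma was reached by 2875 of the 19877 genes tested and by 1 member, DCL3. NRPD1 had 2.92 to 3.5 FPKM in elp2-5 FT leaves and 3.01 to 3.40 FPKM in elp2-5 GC leaves, a log2 difference of 0.00063 with a 95% interval from -0.16 to 0.16. The difference between the NRPD1 flight responses of elp2-5 and Col-0 was itself tested and was -0.29 ± 0.11, with an unadjusted p of 0.018 and an adjusted p of 0.41, so it did not pass the threshold. CLSY3 differed between FT and GC by -0.12 in elp2-5 leaves, 0.29 in met1-7 leaves and 0.13 in Col-0 leaves, and none of these was called.

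In roots CLSY1 and DRD1 rose in Col-0 FT, where 2.9% of all genes changed, and CLSY1 rose in elp2-5 FT, where 6.78% did. CLSY1 had 8.27, 8.78, 9.08 and 8.71 FPKM in elp2-5 FT roots, against 7.07, 5.91, 6.01 and 8.09 FPKM in elp2-5 GC roots. In Col-0 it had 7.22, 7.62, 7.51 and 7.54 FPKM in FT roots, against 6.26, 6.05, 5.56 and 5.29 FPKM in GC roots. The FT libraries lay above the GC libraries in both genotypes, by log2 differences of 0.35 ± 0.09 in elp2-5 and 0.34 ± 0.09 in Col-0 (limma adjusted p = 0.029 and 0.045). DRD1 had 7.43, 7.39, 6.86 and 6.80 FPKM in Col-0 FT roots, against 6.15, 5.73, 5.81 and 5.39 FPKM in Col-0 GC roots, a log2 difference of 0.28 ± 0.07 (adjusted p = 0.033). With median-ratio scaling CLSY1 kept its call in elp2-5 (0.34, adjusted p = 0.035), while in Col-0 CLSY1 was at 0.30 and DRD1 at 0.24, neither called (adjusted p = 0.091 and 0.068). Each Col-0 call was lost without any one of FT replicates 2, 3 and 4 and GC replicates 2, 3 and 4 (adjusted p up to 0.13 for CLSY1 and 0.11 for DRD1), and the elp2-5 call without FT replicate 1, 3 or 4 or GC replicate 2 or 3 (adjusted p up to 0.097).

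In met1-7 roots no member changed between FT and GC, where 1.19% of all genes did. An unadjusted p under 0.05 in limma was reached by 3801 of the 21000 genes tested and by 3 members. CLSY3 was one of them, with 1.06 to 1.43 FPKM in met1-7 FT roots and 0.73 to 1.05 FPKM in met1-7 GC roots, a log2 difference of 0.29 ± 0.11 (adjusted p = 0.17). The point estimates of CLSY1 were above 0 in all 6 flight comparisons on the values as deposited, from 0.03 in Col-0 leaves to 0.35 in elp2-5 roots, but the Col-0 leaf value was -0.019 with median-ratio scaling.

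**Figure D4:**
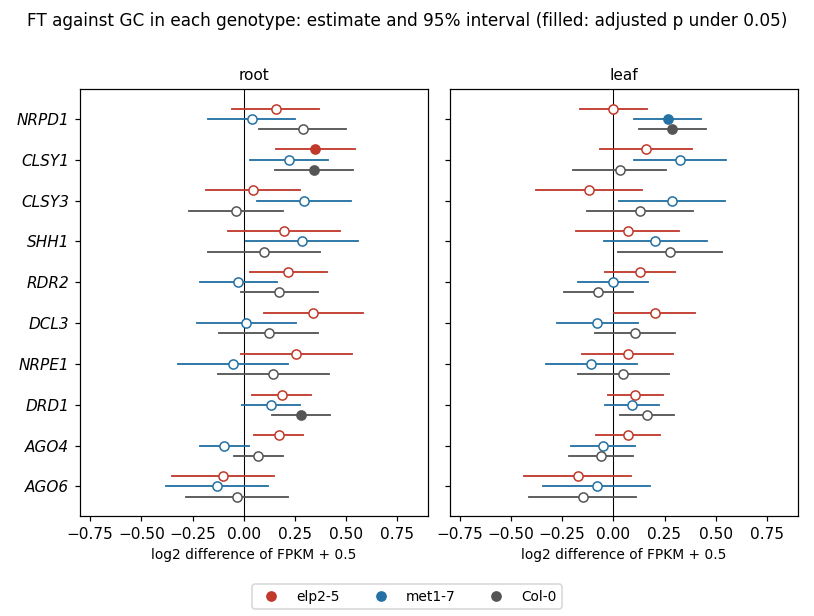
Log2 difference between FT and GC of FPKM + 0.5 for each RdDM gene within elp2-5, met1-7 and Col-0, in roots and leaves. Points and lines are the limma estimate and its 95% interval, and filled points have an adjusted p under 0.05. The filled points are CLSY1 in elp2-5 and Col-0 roots (0.35 and 0.34), DRD1 in Col-0 roots (0.28) and NRPD1 in met1-7 and Col-0 leaves (0.27 and 0.29).

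Whether the flight response itself differed between a mutant and Col-0 was tested for every member in both organs, and limma called none of the 40 tests. For elp2-5 the share of all genes called was 0.0151% in leaves and 0% in roots, and for met1-7 it was 0% in leaves and 0% in roots. An unadjusted p under 0.05 in limma was reached by 1937 of the 19877 genes in elp2-5 leaves and 1331 of the 21000 genes in met1-7 roots. Besides NRPD1 in elp2-5 leaves, the other member with an unadjusted p under 0.05 was CLSY3 in met1-7 roots, with a difference of 0.33 ± 0.16 (unadjusted p = 0.045, adjusted p = 0.77). The 95% intervals of these differences reached as low as -0.615 (CLSY3, elp2-5 leaves) and as high as 0.658 (CLSY3, met1-7 roots).

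Of the other RdDM genes in leaves, 2 of 24 rose in Col-0, against a background of 11.9% of all genes called. They were SUVH9, by 0.33, and FDM1, an RNA-binding partner of the small RNA pathway, by 0.25 (limma adjusted p = 0.0048 and 0.013). None of the 24 was called in met1-7 leaves, with a background of 12.9%. The same held for elp2-5 leaves, whose background was only 0.8%. In roots 3 of 22 rose in elp2-5, with SPT5L, an elongation factor of polymerase V, at 0.32 and DRM2, the methyltransferase that the pathway brings to DNA, at 0.22 (adjusted p = 0.047 and 0.040), and 2 rose in Col-0, FDM1 at 0.33 and DRM2 at 0.25 (adjusted p = 0.033 and 0.036). None was called in met1-7 roots. In these root comparisons 6.78% of all genes changed in elp2-5, 2.9% in Col-0 and 1.19% in met1-7. With median-ratio scaling the 2 Col-0 leaf calls remained in number and no gene of the list was called in roots.

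Over the 24 libraries of an organ the members did not all move together. Given as Pearson correlations of log2(FPKM + 0.5) without a test, AGO4 and NRPE1 had 0.87 in leaves and 0.37 in roots, NRPD1 and CLSY1 had 0.82 in leaves and 0.80 in roots, and NRPD1 and DRD1 had 0.80 in leaves and -0.24 in roots. The 24 points of a correlation share genotype and environment groups, and any 2 groups that differ in both genes add to it. Among the 18666 genes tested in both organs, the non-member most like CLSY3, by the smaller of its leaf and root correlations, was NAC044, a NAC transcription factor (0.97 in leaves and 0.96 in roots), followed by AT5G55270 (0.96 and 0.95). CLSY1 was most like AT5G65750 (0.90 and 0.91) and NRPC1, the largest subunit of RNA polymerase III (0.90 and 0.88). NRPD1 was most like c-NAD-MDH2, a malate dehydrogenase (0.88 and 0.91), and AGO4 most like AT2G45340 (0.93 and 0.80). For DRD1 the list held VEL1 (0.83 and 0.81) and FDM1 (0.81 and 0.81), and the lowest best match was that of AGO6, AT1G79150 (0.73 and 0.83).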

How the data were processed

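Poly(A) RNA was sequenced as paired reads from strand-specific libraries. Per the labels and the study's methods, the authors trimmed reads with Trimmomatic, checked them with FastQC, aligned them with STAR to TAIR10 and estimated transcript levels with RSEM, whose FPKM values they deposited as a leaf table and a root table; the authors' own edgeR results were not used here. FPKM are not counts, so no count test was run. Read depth is not in the tables; the relative depth read from genes under 1 FPKM spanned 0.834 to 1.17 in leaves and 0.86 to 1.17 in roots, which is an estimate. limma 3.58.1 (R 4.3.3) was fitted to log2(FPKM + 0.5) per organ with 6 group means over 24 libraries, moderated with trend and robust options, after keeping genes at 1 FPKM or more in at least 4 libraries (19877 in leaves, 21000 in roots). Benjamini-Hochberg adjustment ran over all genes in each comparison. The fit was tested on simulated data. Alternatives were pseudocounts of 0.1 and 1, no filter, median-ratio scaling, quantile normalization, a replicate block, library weights, only the compared libraries, and each library left out. The 10 genes, the list of 27 other pathway genes and the marker lists were chosen with earlier results of these data known. All 10 members are named, with ELP2 and MET1, and from the list of 27 up to 2 largest rises and falls called in both environments for a mutant, or called for FT against GC. Nothing in the labels says that libraries of a group came from separate plants grown apart, other than separate plates, so p-values measure the spread between these libraries. Upstream bases and positions were read from RefSeq's TAIR10.1 assembly, whose nuclear chromosomes are those of TAIR10, and copies were searched with BLAST 2.17.0. The upstream bases of a further member are not reported here.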

Additional observations from a re-analysis of the deposited data

Results flagged for a closer look

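Among the 120 sets of 4 libraries (10 genes in 12 groups), 8 held a library whose gap to the next one was above Dixon's 95% limit for 4 values, as a share of the set's range, and chance alone gives about 5%, or 6 sets. CLSY3 had 0.75 FPKM in Col-0 FT leaf replicate 4, with the other 3 at 0.57 to 0.59, and 2.12 FPKM in elp2-5 GC leaf replicate 4, with the others at 2.46 to 2.49. In met1-7 FT roots CLSY1 had 7.46 FPKM in replicate 2 with the others at 6.14 to 6.25, DCL3 had 2.91 FPKM in replicate 4 with the others at 2.48 to 2.51, and AGO4 had 21.21 FPKM in replicate 1 with the others at 24.78 to 25.08. SHH1 had 13.5 FPKM in Col-0 FT root replicate 4, with the others at 10.04 to 10.56. AGO4 had 24.73 FPKM in Col-0 GC root replicate 1, with the others at 23.04 to 23.27, and DRD1 had 6.02 FPKM in met1-7 GC root replicate 2, with the others at 6.43 to 6.48. No library was set apart in more than 1 gene.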

How the results depend on the processing

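Of the 59 member calls, 58 kept their side of the threshold with library weights, 57 without the filter, 56 with a replicate block, 44 with median-ratio scaling, 39 with only the compared libraries, 38 with quantile normalization and 59 with either pseudocount. With quantile normalization DRD1 turned its sign in elp2-5 against Col-0 FT leaves (-0.011) and against met1-7 GC leaves (-0.040), both then uncalled. The 15 leaf calls of elp2-5 against Col-0 became 8 with median-ratio scaling and 7 with quantile normalization. The 2 leaf flight calls became 1 with median-ratio scaling, 0 with quantile normalization or only the compared libraries and 4 with library weights; the 3 root flight calls became 1, 0 and 0 with median-ratio scaling, quantile normalization and only the compared libraries. For met1-7 against Col-0, the 1 leaf call became 0 with library weights or only the compared libraries. The number of root calls went from 2 to 4 with library weights. With only the compared libraries 1 root call was made, which was neither the CLSY3 nor the AGO6 call in FT. The causes of these moves were not tested. Leaving out single libraries gave 1 to 4 leaf and 1 to 5 root flight calls, 12 to 15 leaf and 4 to 7 root calls of elp2-5 against Col-0, 0 to 2 leaf and 0 to 4 root calls of met1-7 against Col-0, 27 to 31 calls of elp2-5 against met1-7 (30 with all libraries) and 0 interaction calls. Same-numbered libraries of different groups did not deviate together (correlations of -0.20 to 0.13 in leaves and -0.16 to 0.14 in roots), so no pairing was seen within an organ. Whether the numbers pair leaf with root libraries was not tested. The replicate block lost the calls of DRD1 in elp2-5 against met1-7 GC leaves (limma adjusted p = 0.056) and CLSY1 in Col-0 root flight (0.063). It also lost DRD1 in elp2-5 against Col-0 FT roots (0.058). The tables hold no read counts, so the counting error of low members such as CLSY3 and AGO6 is not known.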
